A study of Mus musculus with 13 samples.

Results

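Glycogen metabolism was examined in the pancreas of 13 female reprogrammable mice through 9 genes: the glycogen phosphorylases Pygl, Pygb and Pygm, the glycogen synthases Gys1 and Gys2, the branching enzyme Gbe1, glycogenin (Gyg), the phosphatase-targeting subunit Ppp1r3c, and Ugp2, which makes UDP-glucose. They were taken by gene identity from a list, and all 9 of 9 were found among the 23366 genes of the table. The list was drawn up around Pygl, which was chosen by its log2 RPKM in the same mice, lower in old than in young and higher in old-OSKM than in old pancreas. The values of Pygl are therefore given as a description without a test, and the other 8 genes were tested. A further 34 genes of the pathway in 6 lists were examined beside them.

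All mice carried the i4F-B transgene, a cassette of Oct4, Sox2, Klf4 and Myc (OSKM) that doxycycline switches on and that is inserted in the Pparg gene. The young group (13 weeks, n = 4) and the old group (55 weeks, n = 5) were left untreated. The old-OSKM group (n = 4, labelled as 58 weeks) received doxycycline in drinking water with sucrose for 1 week, followed by 2 weeks of recovery. Neither control group received doxycycline, and whether their water held sucrose is not stated. Doxycycline, possibly sucrose, and the older labelled age of the old-OSKM mice therefore cannot be told apart from OSKM itself. The cassette is expressed broadly in acinar cells and not in most endocrine cells, and whole pancreas was sequenced, 1 library per mouse. Values are log2 RPKM (reads scaled by transcript length and by the total of mapped reads), so levels may be compared between genes per length. The paper gives only a rounded read depth common to all samples, so the exact depth of each library is unknown. In bulk tissue, fewer cells of a type and less RNA per cell cannot be told apart.

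Glycogen is a branched store of glucose. Glycogenin primes it, glycogen synthase lengthens its chains from UDP-glucose, the branching enzyme adds branch points, and glycogen phosphorylase releases glucose 1-phosphate from the chain ends. Phosphorylase is encoded by separate genes that are named for liver (Pygl), brain (Pygb) and muscle (Pygm), and synthase by a widely expressed gene (Gys1) and a liver gene (Gys2). Subunits such as Ppp1r3c bring protein phosphatase 1 to glycogen, where it activates synthase and inactivates phosphorylase.

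Pancreatic identity was clear in all mice, with the 8 acinar markers summing to between 8396 and 8921 RPKM. Quantile normalization makes the highest values of all mice nearly equal, so this narrow range does not measure acinar content. Among the mice, 2 libraries touched the glycogen genes. In the young mouse JCX1158 the 6 hepatocyte markers summed to 62.6 RPKM, against 0.800 to 4.59 in the other 12 mice, and Alb (albumin) stood at a log2 RPKM of 5.36, against -1.19 to 1.24. In the same mouse Pygl, Gys2 and Ppp1r3c were at their highest of all 13 mice, and the part of the liver transcripts in these values was not tested. The old-OSKM mouse JCX1011 had a median Spearman correlation of 0.832 with the other mice over 8410 genes, while that of the others lay between 0.933 and 0.968. It held the lowest value of 5 of the 9 genes. Results that rest on these mice are given with and without them.

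Pygl (Entrez 110095, chromosome 12 from 70190815 to 70227683, minus strand, GRCm38.p6, the mm10 assembly) encodes the liver phosphorylase. Its log2 RPKM was -1.15, -0.91, -0.27 and -0.92 in the young mice. It was -2.08, -1.79, -1.92, -1.50 and -1.41 in the old mice. It was -0.40, -1.20, -0.71 and -0.56 in the old-OSKM mice. All 5 old mice lay below every young and every old-OSKM mouse, while young and old-OSKM mice overlapped. On the RPKM scale the geometric means were 0.570 in young, 0.300 in old and 0.608 in old-OSKM pancreas.

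The group means of Pygl were -0.81 ± 0.38 (SD, n = 4), -1.74 ± 0.28 (SD, n = 5) and -0.72 ± 0.35 (SD, n = 4) log2 RPKM. The log2 difference was -0.93 between old and young mice (95% interval -1.39 to -0.47) and 1.02 between old-OSKM and old mice (95% interval 0.56 to 1.48). Between old-OSKM and young mice it was 0.09 (95% interval -0.39 to 0.58). Both larger differences are those for which the gene was chosen, and the old mice are shared by them. Their intervals therefore do not hold 95% coverage and serve as no test. Values of old and young mice failed to overlap in 2.71% of all genes, those of old-OSKM and old mice in 1.73%, and those of old-OSKM and young mice in 1.9%, and nothing is read from Pygl being one of them.

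The difference of Pygl without the 2 libraries was similar. Leaving out JCX1158 gave -0.75 for old minus young, and the remaining young mice, from -1.15 to -0.91, still lay above all old mice. Leaving out JCX1011 gave 0.97 for old-OSKM minus old. With both left out, the differences were -0.75 and 0.97, a choice of mice made after the data were seen. Because Pygl is weakly expressed, adding 1 to the RPKM before taking log2 reduced the differences to -0.28 and 0.31.

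**Figure D1:**
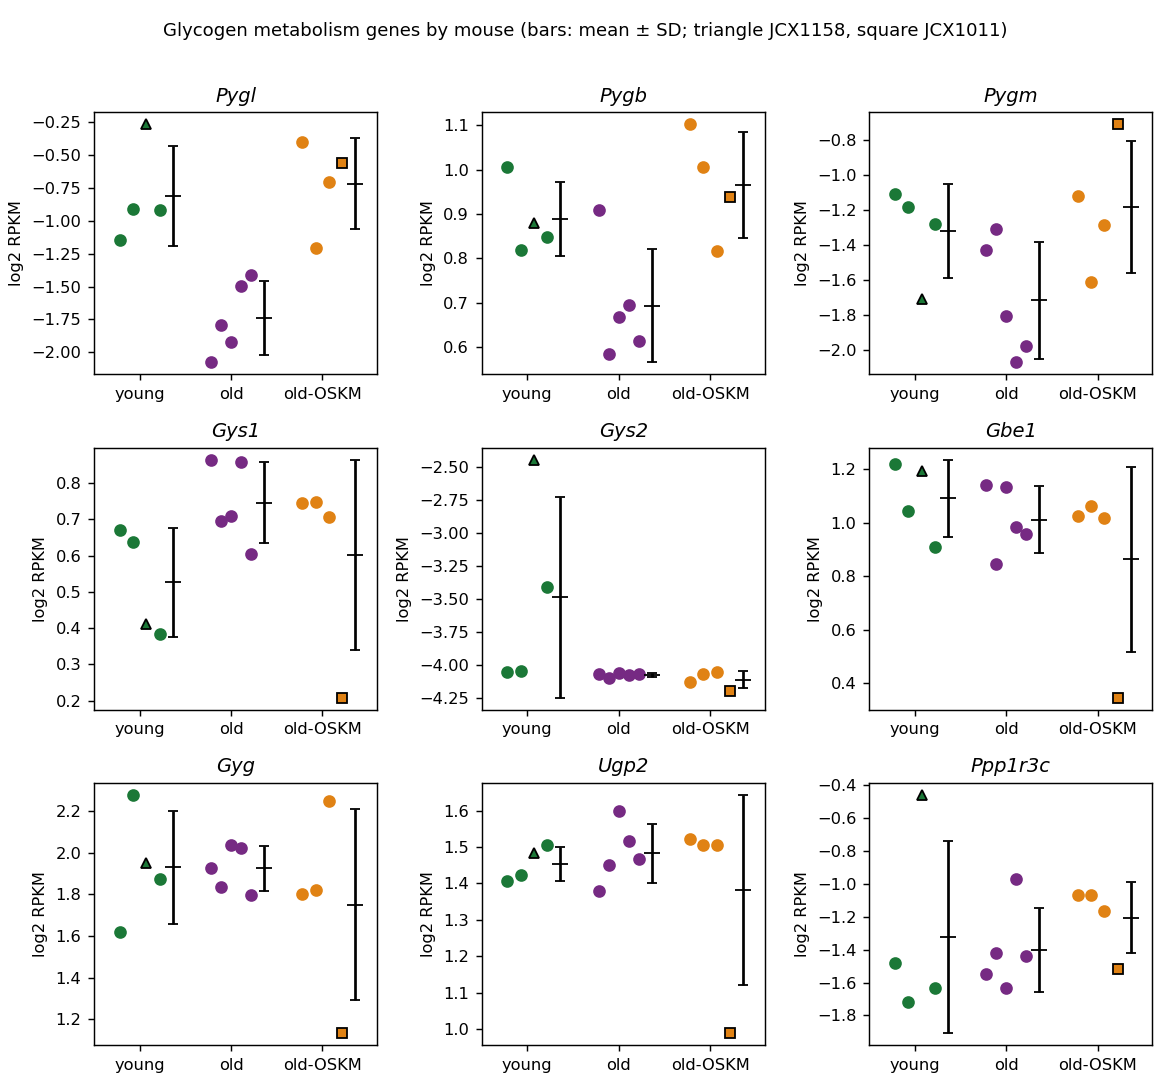
Log2 RPKM of the 9 glycogen metabolism genes (y axis, 1 panel per gene) in each young, old and old-OSKM mouse, with the group mean ± SD as a bar beside the points; the triangle is JCX1158 and the square JCX1011. The old mice lie between -2.08 and -1.41 for Pygl, below all other mice, whereas JCX1011 is the lowest point in the panels of Gys1, Gys2, Gbe1, Gyg and Ugp2.

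Pygb (Entrez 110078, chromosome 2 from 150786796 to 150831748, plus strand) encodes the brain phosphorylase and was the most highly expressed of the 3. Its log2 RPKM was 1.01, 0.82, 0.88 and 0.85 in young, 0.91, 0.58, 0.67, 0.69 and 0.61 in old, and 1.10, 1.01, 0.82 and 0.94 in old-OSKM mice. Of the old mice, JCX1000 at 0.91 lay inside the range of both other groups, and the other 4 lay below them. The log2 difference was -0.19 between old and young mice (95% interval -0.36 to -0.03, adjusted p = 0.787, limma) and 0.27 between old-OSKM and old mice (95% interval 0.10 to 0.44, adjusted p = 0.547, limma). Neither reached the fold change of 1.5 that a call required.

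Pygm (Entrez 19309, chromosome 19 from 6384408 to 6398464, plus strand) encodes the muscle phosphorylase. Its log2 RPKM was -1.11, -1.18, -1.71 and -1.28 in young, -1.43, -1.31, -1.81, -2.07 and -1.98 in old, and -1.12, -1.62, -1.29 and -0.71 in old-OSKM mice. The old values overlapped with those of both other groups, and the highest value was that of JCX1011. Old mice differed from young mice by -0.40 on the log2 scale (95% interval -0.86 to 0.06, adjusted p = 1, limma) and 0.53 between old-OSKM and old mice (95% interval 0.07 to 0.99, adjusted p = 0.547, limma). The difference between old-OSKM and old mice kept its sign with each mouse left out, but its size varied from 0.38 to 0.68. Without JCX1027 it was 0.68 and passed the call (adjusted p = 0.381, limma), and without JCX1011 it was 0.38 (adjusted p = 0.801, limma).

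The 6 skeletal muscle markers summed to between 0.819 and 1.27 RPKM over all mice. In old-OSKM against old mice, 3 of these markers were higher and 3 lower. None of the 6 was called, beside 0.753% of all genes, and 2 had a raw p under 0.05 by limma, beside 8.07%. Between old and young mice, 4 were higher and 2 lower in old, with 0 called, beside 0.886% of all genes.

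Set side by side, the means of all 3 phosphorylases were lowest in old pancreas, but only Pygl showed a difference of more than 1.5-fold, and whether its difference exceeded those of Pygb and Pygm was not tested. Their summed level averaged 2.85 ± 0.12 RPKM for the young group (SD, n = 4), 2.24 ± 0.14 for the old group (SD, n = 5) and 3.03 ± 0.30 for the old-OSKM group (SD, n = 4). The highest old mouse reached 2.49 RPKM, below the lowest young mouse at 2.74 and the lowest old-OSKM mouse at 2.77. The separation was complete only with Pygl, whose values are those for which it was chosen. Pygb and Pygm alone summed to 2.15 to 2.47 in young, 1.79 to 2.25 in old and 2.17 to 2.61 RPKM in old-OSKM mice. These ranges overlap through the old mouse JCX1000 (2.25 RPKM), and the next highest old mouse, JCX1001, stood at 1.90 RPKM. The mean sums of Pygb and Pygm were 2.26, 1.93 and 2.41 RPKM, in the same order as those of all 3 genes. Pygb supplied most of the sum in every mouse, from 59.8% to 75.5%.

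The share of Pygl in the sum was 20.5% ± 5.26 for young mice (SD, n = 4), 13.7% ± 3.09 for old mice (SD, n = 5) and 20.3% ± 3.15 for old-OSKM mice (SD, n = 4). Individual shares overlapped, since the old mice reached 17.4% and the lowest young mouse lay at 15.4%. The share of Pygm was 14.3% ± 2.73 (SD, n = 4), 13.8% ± 3.01 (SD, n = 5) and 14.8% ± 3.09 (SD, n = 4), so that Pygl and Pygm differed by less than their SD in old mice. These shares contain the values for which Pygl was chosen and were not tested.

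**Figure D2:**
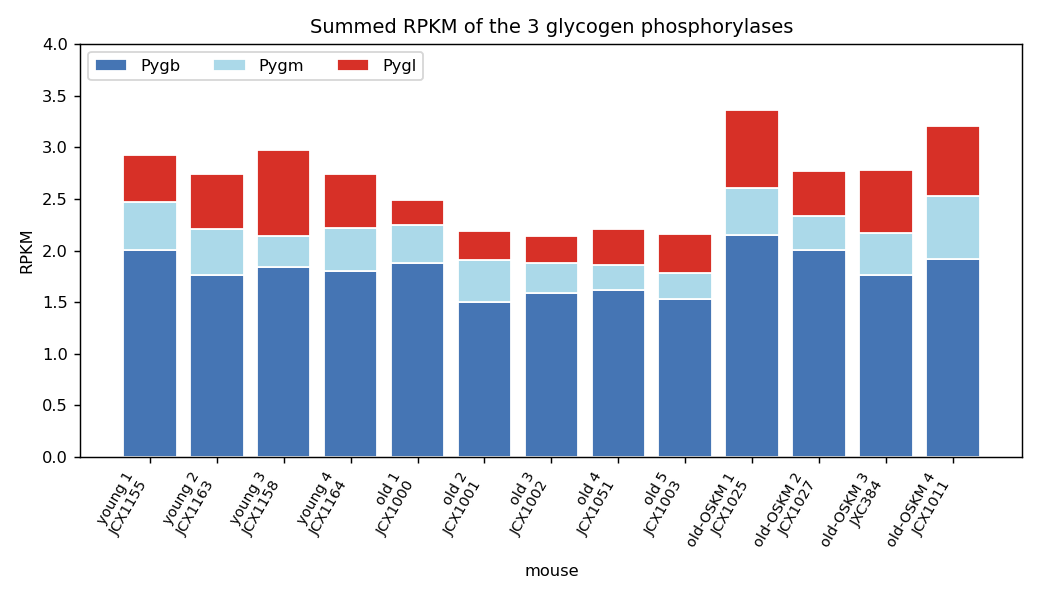
Summed RPKM (y axis) of Pygb, Pygm and Pygl, stacked, in each of the 13 mice (x axis). The bars of the 5 old mice end at or below 2.49 RPKM and those of all other mice at or above 2.74. This separation is complete only with Pygl, because the bars of Pygb and Pygm alone overlap between groups through the old mouse JCX1000. Pygb is the largest segment throughout.

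The 250 bases before the start of each phosphorylase gene are shown because the means of the 3 genes were ordered in the same way, and because each factor of the cassette has a short, well known recognition sequence. The sequences are from RefSeq (GRCm38.p6), written 5′ to 3′ on the strand of the gene, and capitals mark the Klf4 core GGGTG or its reverse complement CACCC. They lie at chr12:70227684-70227933 (minus strand) for Pygl, chr2:150786546-150786795 (plus strand) for Pygb and chr19:6384158-6384407 (plus strand) for Pygm.
Pygl: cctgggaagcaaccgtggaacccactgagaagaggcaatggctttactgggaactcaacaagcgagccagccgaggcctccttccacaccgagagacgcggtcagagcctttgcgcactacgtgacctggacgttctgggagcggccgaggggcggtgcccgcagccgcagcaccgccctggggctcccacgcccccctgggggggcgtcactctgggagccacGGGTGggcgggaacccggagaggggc
Pygb: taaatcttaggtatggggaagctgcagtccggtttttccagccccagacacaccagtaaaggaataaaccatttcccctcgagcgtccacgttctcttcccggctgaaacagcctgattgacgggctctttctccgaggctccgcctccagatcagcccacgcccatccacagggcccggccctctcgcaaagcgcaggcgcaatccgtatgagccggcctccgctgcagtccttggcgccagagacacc
Pygm: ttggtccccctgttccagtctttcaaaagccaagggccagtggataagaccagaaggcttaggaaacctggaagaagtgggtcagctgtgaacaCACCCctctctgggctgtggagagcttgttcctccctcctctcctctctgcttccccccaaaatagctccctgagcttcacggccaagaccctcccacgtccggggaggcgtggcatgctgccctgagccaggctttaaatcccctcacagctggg
The window of Pygl held 1 Klf4 core, beginning at base -26 from the start, that of Pygm held 1, beginning at -156, and that of Pygb held none. This core is common, with a match on either strand in 52.0% of 32851 windows of the same length. The Myc E-box CACGTG (6.0% of windows), the octamer ATGCAAAT bound by Oct4 (1.6%) and the Sox core ATTGTT (9.4%), each searched on both strands, were in none of the 3 windows. Of the other members with an entry, Gys1 had 1 Klf4 core and Ppp1r3c had 1 E-box. A match is a string of letters and was not tested for binding.

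Among the genes of synthesis, Gys1 (Entrez 14936, chromosome 7 from 45434839 to 45456617, plus strand) accounted for 87.8% to 96.8% of the summed synthase RPKM. Its log2 RPKM was 0.67, 0.64, 0.41 and 0.38 in young, 0.86, 0.70, 0.71, 0.86 and 0.60 in old, and 0.74, 0.75, 0.71 and 0.21 in old-OSKM mice. Old and young mice overlapped, and the low old-OSKM value was that of JCX1011. Old minus young gave a log2 difference of 0.22 (95% interval -0.04 to 0.48, adjusted p = 1, limma) and -0.14 between old-OSKM and old mice (95% interval -0.40 to 0.11, adjusted p = 0.609, limma). Without JCX1011 the second was -0.01. Gys1 shares 310 exon bases (6.47% of its exons) with Ruvbl2 on the other strand, and the library kit does not mark strand.

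Gys2 (Entrez 232493, chromosome 6 from 142422612 to 142473130, minus strand) encodes the liver synthase and was close to the bottom of the table. Its log2 RPKM was -4.05, -4.04, -2.44 and -3.40 in young mice, and from -4.09 to -4.06 in old and from -4.19 to -4.05 in old-OSKM mice. The 5 old mice differed by 0.03 in all, which is too constant to resolve the mice from each other. The highest value was again that of JCX1158, the mouse with the high hepatocyte markers. The old minus young difference of -0.59 on the log2 scale (adjusted p = 0.886, limma) is for this reason no measured fold, and without JCX1158 it was -0.24 (adjusted p = 0.928, limma).

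Gbe1, Gyg and Ugp2 branch, prime and supply glycogen synthesis. The log2 RPKM of Gbe1 (Entrez 74185, chromosome 16 from 70313949 to 70569720, plus strand) ran from 0.91 to 1.22 in young, 0.85 to 1.14 in old and 0.34 to 1.06 in old-OSKM mice. That of Gyg (Entrez 27357, chromosome 3 from 20122083 to 20155117, minus strand) ran from 1.62 to 2.28, 1.80 to 2.04 and 1.13 to 2.25. That of Ugp2 (Entrez 216558, chromosome 11 from 21321126 to 21371267, minus strand) ran from 1.41 to 1.505, 1.38 to 1.60 and 0.99 to 1.52. In each of these genes the groups overlapped, and the lowest value was that of JCX1011.

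The log2 differences between old and young mice were -0.08 for Gbe1 (95% interval -0.39 to 0.23), -0.01 for Gyg (-0.42 to 0.41) and 0.03 for Ugp2 (-0.19 to 0.25), each with adjusted p = 1 (limma). Between old-OSKM and old mice they were -0.15 for Gbe1 (-0.46 to 0.16), -0.17 for Gyg (-0.59 to 0.24) and -0.10 for Ugp2 (-0.32 to 0.12), with adjusted p = 0.641, 0.672 and 0.656 (limma). Each of these last differences was slightly above 0 without JCX1011, at 0.02, 0.03 and 0.03. Ugp2 shares 78 exon bases (2.54%) with Gm12043 on the other strand.

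Ppp1r3c (Entrez 53412, chromosome 19 from 36731731 to 36736604, minus strand) had log2 RPKM of -1.48, -1.72, -0.46 and -1.63 in young, -1.55, -1.42, -1.63, -0.97 and -1.44 in old, and -1.07, -1.07, -1.16 and -1.52 in old-OSKM mice. The groups overlapped, and JCX1158 was again highest. The log2 difference was -0.08 between old and young mice (95% interval -0.60 to 0.44, adjusted p = 1, limma) and 0.20 between old-OSKM and old mice (95% interval -0.33 to 0.72 and adjusted p = 0.698 by limma). Without JCX1158 the first was 0.21, with the sign turned.

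Over the 8 tested genes, limma called 0 in any of the 3 comparisons, a call being a change of more than 1.5-fold with raw p under 0.01. The shares of all 23366 genes called were 0.886% between old and young, 0.753% between old-OSKM and old, and 0.625% between old-OSKM and young mice. At a raw p under 0.05, 2 of the 8 passed between old and young (Pygb and Gys2, against 5.52% of all genes), 2 between old-OSKM and old (Pygb and Pygm, against 8.07%), and 1 between old-OSKM and young (Gys2, against 5.07%). None of the 8 had an adjusted p under 0.05, as was the case for all but 0.0813%, 0.00428% and 0.0428% of all genes. The median log2 difference of the 8 was -0.08 between old and young mice, against 0.0012 for all genes, and -0.07 between old-OSKM and old mice, against -0.04.

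**Figure D3:**
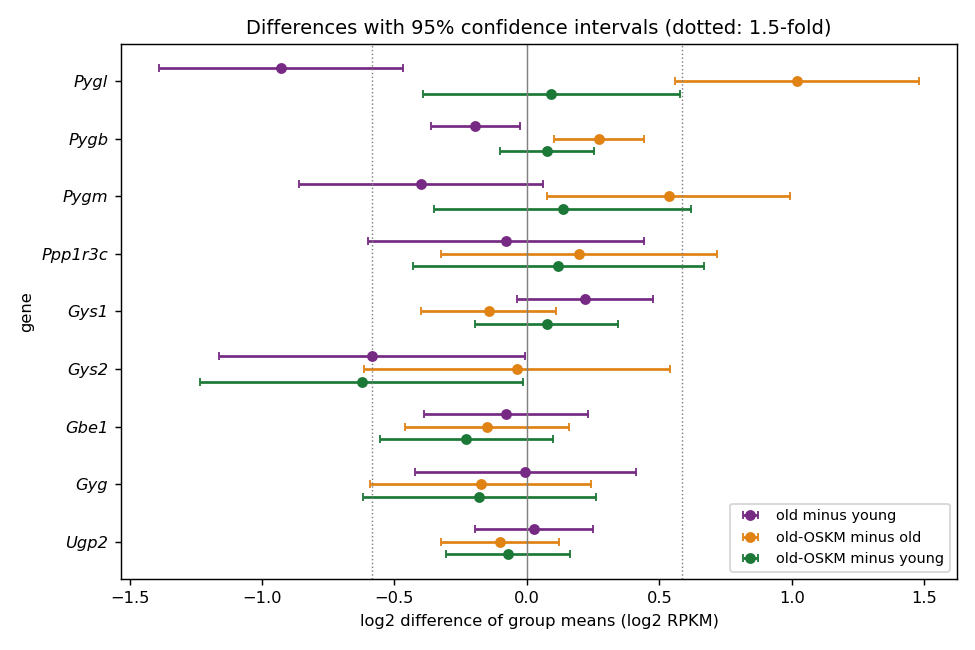
Log2 difference of group means (x axis) with its 95% confidence interval for each of the 9 genes (y axis) in the 3 comparisons; dotted lines mark a fold change of 1.5. Pygl stands at -0.93 and 1.02 in the first 2 comparisons, and the intervals of Gbe1, Gyg, Ugp2 and Ppp1r3c include 0 in all of them. The intervals of Pygl in the first 2 comparisons serve as no test, because the gene was chosen by them.

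In the order of mean level over the 13 mice, Gyg came first at 1.87 log2 RPKM, above the mean of 91.1% of all genes. It was followed by Ugp2 (1.44), Gbe1 (0.99), Pygb (0.84) and Gys1 (0.63), then by Pygl (-1.14), Ppp1r3c (-1.32) and Pygm (-1.43), and last by Gys2 (-3.90). Gyg exceeded Ugp2, and Ugp2 exceeded Gbe1, in 13 of 13 mice. Gbe1 and Pygb differed by 0.15 ± 0.26 (SD of the difference, n = 13), and Pygb and Gys1 by 0.20 ± 0.26, so that neither pair differed beyond its spread. The same held for Pygl and Ppp1r3c (0.18 ± 0.52) and for Ppp1r3c and Pygm (0.11 ± 0.61). Between Gys1 and Pygl there was a step of 1.77 ± 0.71, and no value of Pygl reached any value of Gys1.

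Within groups, Pygl was compared with the other 8 members through the deviations of each mouse from its group mean, which are independent of the group means that chose Pygl. Pearson's r over the 13 mice lay between -0.41 (Gys1) and 0.56 (Ppp1r3c), and the smallest p adjusted over the 8 pairs was 0.558 for r and 0.759 for Spearman's rho (two-sided exact permutation tests of mice within groups). For Ppp1r3c, r was 0.56 and rho 0.37, with exact permutation p of 0.0978 and 0.245. Without JCX1158 and JCX1027, the mice farthest from the median of the Pygl deviations, r was 0.43. For Gys2, r was 0.55 and rho 0.06 (exact permutation p = 0.139 and 0.873), and r was 0.11 without the same mice, so that it rested on them. With Pygb and Pygm, r was -0.27 and -0.25 and rho -0.29 and -0.21 (exact permutation p = 0.394 and 0.449 for r, and 0.379 and 0.534 for rho). None of these relations passed the test.

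The 5 genes whose pattern over the 13 mice was most like that of Pygl, among 8410 genes with a mean log2 RPKM above 0, were Col18a1 (r = 0.80, rho = 0.82), a basement membrane collagen, Pls3 (r = 0.77, rho = 0.81), an actin-bundling protein, Trf (r = 0.77, rho = 0.74), the plasma iron carrier transferrin, Nrp2 (r = 0.76, rho = 0.74), a semaphorin and VEGF co-receptor, and Ssna1 (r = 0.76, rho = 0.80). They were found by their likeness, and no test applies. Their means followed the same order as the pattern by which Pygl was chosen. For Col18a1 these were 0.38 ± 0.30 log2 RPKM for young mice (SD, n = 4), -0.15 ± 0.09 for old mice (SD, n = 5) and 0.42 ± 0.36 for old-OSKM mice (SD, n = 4). Without JCX1000 and JCX1158, r lay between 0.70 (Trf) and 0.82 (Pls3).

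Markers of several other cell types differed in the direction of Pygl, and those of others did not. Among all 23366 genes, 10643 were lower in old than young mice, and 8623 were higher in old-OSKM than old mice. Calls fell on 0.886% and 0.753% of all genes in these 2 comparisons, and a raw p under 0.05 on 5.52% and 8.07%. Of the 5 fibroblast and stellate cell markers, old mice were lower than young mice in 5, with Col1a1 called (log2 difference -0.93, adjusted p = 0.469, limma). In old-OSKM against old mice 5 of 5 were higher, with Col1a1 (0.88) and Col1a2 (0.89) called (both adjusted p = 0.547, limma). The markers summed to 21.6 to 41.0 RPKM in young, 16.8 to 21.7 in old and 20.8 to 61.8 in old-OSKM mice.

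Macrophage markers were higher in old-OSKM than in old mice in 5 of 5. Of these, 4 had a raw p under 0.05 (8.07% of all genes) and 0 were called (0.753% of all genes). Their sum ran from 5.75 to 9.08 RPKM in old and from 7.30 to 19.3 in old-OSKM mice. Adipocyte markers were higher in 6 of 6, with Plin1 called (1.53, adjusted p = 0.547, limma), and summed to 0.693 to 0.754 RPKM in old and 0.789 to 7.53 in old-OSKM mice. Between old and young mice, 4 of 5 macrophage markers and 6 of 6 adipocyte markers were lower in old mice, with 0 called, and the sums of both lists overlapped. Endothelial markers were lower in old than young mice in 4 of 5, 1 of them with a raw p under 0.05, and higher in old-OSKM than old mice in 5 of 5, with 0 called in either comparison, and summed to 9.25 to 14.6 RPKM in young, 8.33 to 9.78 in old and 9.16 to 18.2 in old-OSKM mice. Hepatocyte markers were lower in old than young mice in 5 of 6 and in old-OSKM than in old mice in 6 of 6, with 0 called. Their median sum was 0.912 RPKM in young and 1.51 RPKM in old mice. The highest young sum, 62.6 RPKM, was that of JCX1158. Islet markers were higher in old than young mice in 5 of 6 and lower in old-OSKM than old mice in 6 of 6. B and plasma cell markers (5 of 5) and T cell markers (4 of 4) were higher in both comparisons. Of these, 1 B and plasma cell marker was called between old and young mice. Duct markers were lower in old than young mice in 4 of 5, and higher in old-OSKM than old mice in 2 of 5. Of the neutrophil markers, 3 of 5 were higher in the first comparison and 1 of 5 in the second. The part of these cell types in the level of Pygl was not tested.

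By mouse, JCX1011 had the highest fibroblast sum (61.8 RPKM), and JCX1025 the highest macrophage (19.3 RPKM) and adipocyte sums (7.53 RPKM). In the old-OSKM mouse JXC384 the fibroblast (20.8 RPKM) and macrophage sums (8.58 RPKM) lay within the range of the old mice, and the adipocyte sum (0.789 RPKM) lay above it.

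**Figure D4:**
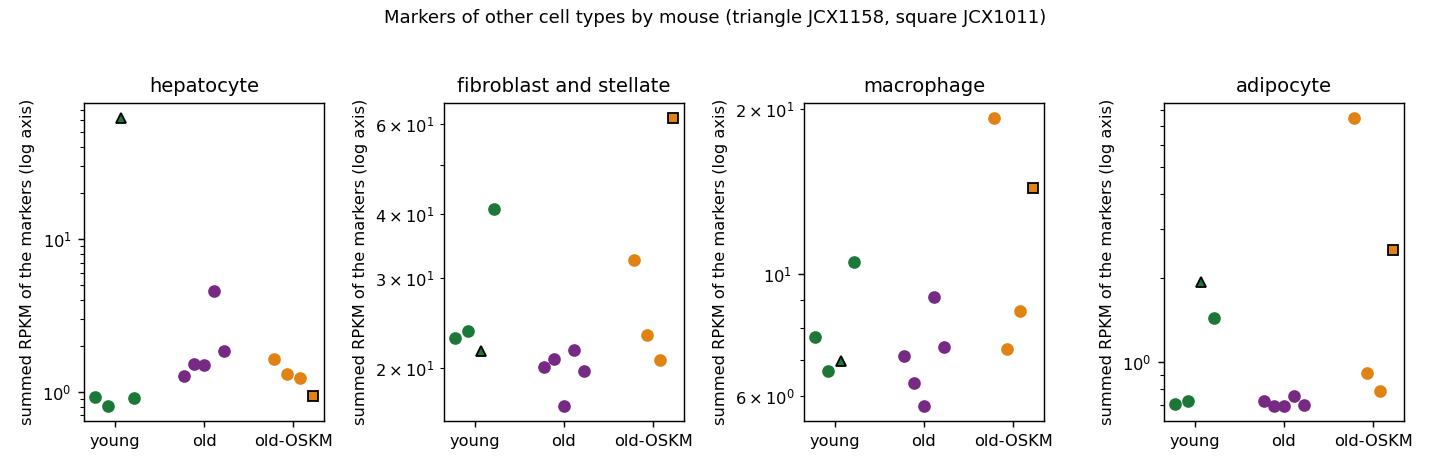
Summed RPKM of the markers of 4 other cell types (y axis, log scale) in each young, old and old-OSKM mouse; the triangle is JCX1158 and the square JCX1011. The hepatocyte sum of JCX1158 is 62.6 RPKM against at most 4.59 in the others, and the fibroblast sum of JCX1011 is 61.8 RPKM.

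The wider pathway was examined through 34 further genes, all of which were in the table. None of the 34 was called between old and young mice or between old-OSKM and old mice by limma, beside 0.886% and 0.753% of all genes. At a raw p under 0.05, 3 of 34 passed between old and young mice (5.52% of all genes) and 1 of 34 between old-OSKM and old mice (8.07% of all genes), and none had an adjusted p under 0.05. Between old and young mice 23 were higher and 11 lower in old, with a median of 0.07, and between old-OSKM and old mice 16 were higher and 18 lower in old-OSKM, with a median of -0.05. Between old-OSKM and young mice 0 of 34 were called (0.625% of all genes), and 2 of 34, Hk1 and Hk3, had a raw p under 0.05 (5.07% of all genes).

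Of breakdown, Gaa, the lysosomal acid glucosidase, was between old and young mice the only one of the 3 genes of its list with a raw p under 0.05. Its log2 RPKM was 1.48, 1.49, 1.47 and 1.63 in young and 1.74, 1.62, 1.70, 1.78 and 1.62 in old mice, a log2 difference of 0.17 (adjusted p = 0.745, limma). The groups overlapped through 1 young mouse. The 5 phosphorylase kinase subunits, which activate phosphorylase, had differences from -0.19 to 0.20 and from -0.17 to 0.27, all with a raw p over 0.05.

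Of the 6 other glycogen-targeting subunits of protein phosphatase 1, old mice had the higher mean in 5. Among these, Ppp1r3a averaged -4.19 log2 RPKM over the 13 mice, below Gys2 (-3.90), so its difference is no measured fold. Of the 6, 1 had a raw p under 0.05. This was Ppp1r3d, at -0.85, -1.11, -0.67 and -1.51 in young and -0.71, -0.58, -0.42, -0.67 and -0.53 in old mice, a log2 difference of 0.45 (adjusted p = 0.784, limma). Ppp1r3b, which targets the phosphatase to liver glycogen, was at -1.95, -2.08, -0.70 and -2.19 in young and -1.06, -1.33, -0.83, -1.49 and -1.41 in old mice. Its log2 difference was 0.51 with all mice (adjusted p = 1, limma). Without JCX1158, the young mouse at -0.70, it was 0.85 and passed the call (adjusted p = 0.301, limma). Ppp1r3b was named after its values were seen.

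Of glucose phosphate metabolism, Pgm2l1, which makes glucose 1,6-bisphosphate, was at -0.07, -0.06, -0.31 and -0.09 in young and -0.41, -0.35, -0.39, -0.12 and -0.50 in old mice. On the log2 scale the difference was -0.22 (adjusted p = 0.703, limma), and the groups overlapped. Hk3, a hexokinase of myeloid cells, was at -1.39, -1.57, -1.53, -1.16 and -1.56 in old and 0.24, -1.10, -1.10 and -1.28 in old-OSKM mice. On the log2 scale the difference was 0.63 (adjusted p = 0.547, limma). The value of 0.24 was that of JCX1025, the mouse with the highest macrophage marker sum. The part of macrophage transcripts in it was not tested. The other old-OSKM values, from -1.28 to -1.10, lay within or just above the old range. Between old-OSKM and young mice the log2 difference of Hk3 was 0.85 (adjusted p = 0.706, limma), without overlap between these groups, as in 1.9% of all genes. The liver gene G6pc was at -0.74 and the glucose transporter gene Slc2a2 at 1.04 in JCX1158, their highest values. The islet markers of this mouse summed to 293 RPKM, the highest of the young mice. The part of liver or islet transcripts in these values was not tested.

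**Figure D5:**
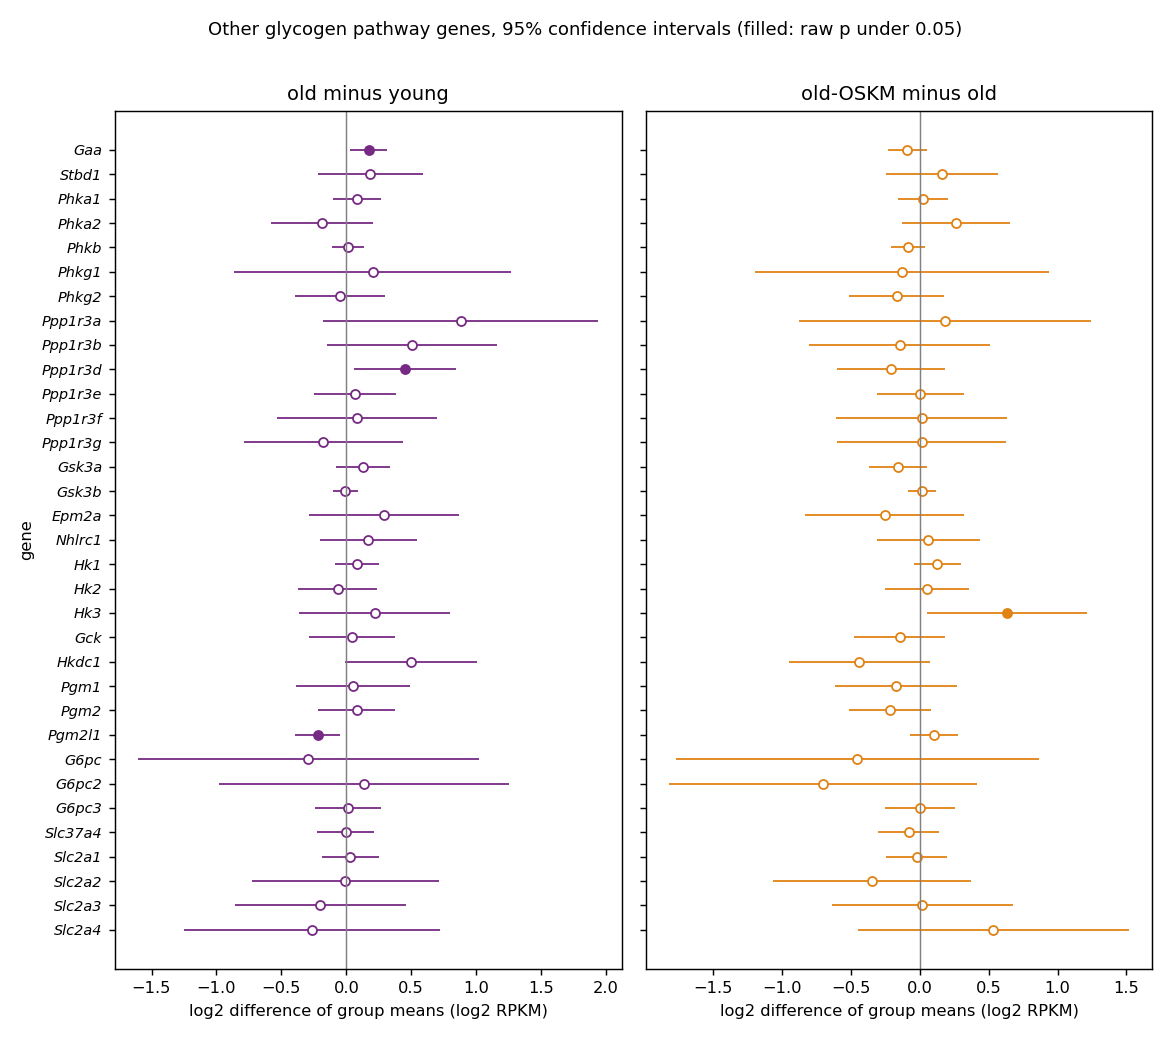
Log2 difference of group means (x axis) with its 95% confidence interval for 33 of the 34 other glycogen pathway genes (y axis), between old and young mice on the left and between old-OSKM and old mice on the right; filled points have a raw p under 0.05. There are 3 filled points on the left (Gaa, Ppp1r3d and Pgm2l1) and 1 on the right (Hk3).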

How the data were processed

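RNA was sequenced from the pancreas of 13 mice, after rRNA depletion, with paired ends. The authors aligned reads with STAR 2.3.0e to mm10, estimated RPKM per isoform with Casper, summed them per Entrez gene, and deposited log2 RPKM after quantile normalization. The sorted values of the mice differ by at most 0.0116. The authors' correction for total reads is not in the deposited log2 values, and read totals are not in the table, so counting error is unknown. Each mouse was taken as 1 replicate.

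Genes were named through RefSeq (GRCm38.p6), which matched 23273 of 23366 identifiers. Differences were obtained with the R package limma (version 3.58.1, R version 4.3.3; lmFit and eBayes at their defaults), with all 3 groups in 1 fit, no covariate, no pseudocount and no filter. A call required a change of more than 1.5-fold with raw p under 0.01, as the study defines it, and p-values were adjusted by Benjamini-Hochberg over all genes. Named were all 9 members, the other pathway genes with a raw p under 0.05 between old and young or between old-OSKM and old mice (at most 12 by rule), and the 5 genes most correlated with Pygl. Members and lists were chosen with earlier results of these data known. For 12 lists of cell type markers, counts or summed levels are given. In exact permutation tests all 69120 orders of mice within groups were used, in place of the random draws first planned. Promoter windows were matched by symbol for 8 of 9 members. One pathway gene enters the counts and is not reported here by name. Scripts were tested on simulated data. Alternatives covered a repeated normalization, centring, pseudocounts of 1 and 0.1, filters, 2 groups in the fit, trend and robust eBayes, a covariate for the later sample identifiers, an adjusted p under 0.05 as the call, and each mouse left out. Plots were drawn with matplotlib 3.10.9 in Python 3.11.15.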

Additional observations from a re-analysis of the deposited data

Results flagged for a closer look

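Of 27 sets of values (9 genes in 3 groups), 3 held a mouse far from the others of its group by Dixon's ratio of gap to range, and chance gives about 1 in 20. All 3 were the old-OSKM mouse JCX1011. Its log2 RPKM of Gys1 was 0.21, against 0.71 to 0.75 in the other old-OSKM mice (ratio 0.926). Its log2 RPKM of Gbe1 was 0.34, against 1.02 to 1.06 (ratio 0.934). Its log2 RPKM of Ugp2 was 0.99, against 1.51 to 1.52 (ratio 0.971). This mouse had the lowest correlation with the other libraries (median Spearman 0.832) and the highest fibroblast, duct and endothelial marker sums (61.8, 37.6 and 18.2 RPKM), whose part in these values was not tested.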

How the results depend on the processing

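Under every alternative tried, each difference of the 8 tested members in the 3 comparisons stayed on its side of the call, except for Pygm between old-OSKM and old mice without JCX1027 (1 of 540 values), and no adjusted p fell under 0.05. Accordingly, the number of the 8 members called between old-OSKM and old mice ranged from 0 to 1 with mice left out in turn, and that of the 34 other pathway genes called between old and young mice ranged from 0 to 1, the 1 being Ppp1r3b without JCX1158. With JCX1011 and JCX1158 left out together it was also 1. Between old-OSKM and young mice, pathway genes were called only under alternatives: Hk3 with the filter above -2 (0.85) and without JCX1011 (1.01), Ppp1r3a without JCX1011 (1.53), and Ppp1r3b without JCX1158 (0.70) and without both mice (0.86). The mean level of Ppp1r3a, -4.19 log2 RPKM over the 13 mice, lay below that of Gys2, so its 1.53 is no measured fold. For Pygl, a pseudocount of 1 gave -0.28 (old minus young) and 0.31 (old-OSKM minus old), the only alternatives that moved these values by more than the spread between mice. With mice left out in turn they ranged from -1.04 to -0.75 and from 0.91 to 1.18. The difference of Pygl between old-OSKM and young mice turned sign without JCX1155 (-0.019) or JCX1025 (-0.014), and ranged up to 0.27 with mice left out. Within groups, r of Pygl with Ugp2 turned from -0.06 to 0.11 without JCX1158 and JCX1027. With a filter on a mean log2 RPKM above 0, Pygl, Pygm, Gys2 and Ppp1r3c gave no value, and above -2 Gys2 gave none. No paired analysis was possible because the mice carry no shared numbers across groups. In the table without read totals, depth cannot limit single values by a stated amount.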
